A study of Mus musculus with 7 samples.

Results

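Broad open regions were stretches of at least 1500 bp that the peak caller joined into 1 interval, in chromatin of sorted cells from E9.5 mouse embryos. They were chosen by the interval length and the q-value in the deposited ATAC-seq peak lists: every interval of at least 1500 bp with a -log10 q of at least 2 was taken from each of 7 libraries, on chromosomes 1 to 19, and intervals sharing at least 1 bp were merged. This gave 493 regions, of 203618 regions that result when all intervals with q at most 0.01 are merged in the same way. The libraries came from the region of the second heart field, a pool of progenitor cells that adds myocardium to both poles of the growing heart tube. GFP+ and GFP- cells (2 libraries each, replicates 3 and 4 and replicates 1 and 2) were sorted from embryos carrying the Hoxb1-GFP allele, in which GFP marks cells expressing Hoxb1 in the posterior second heart field. The paper's methods give the short name Hoxb1- to its Hoxb1 alleles, this one among them, and the labels do not state its copy number. Tomato+ cells (2 libraries, replicates 6 and 8) and Tomato- cells (1 library, replicate 7) were sorted from the Mef2c-Cre;Rosa-tdT line. An anterior heart field element of Mef2c drives Cre there, which turns on a tdTomato reporter at the Rosa26 locus. Embryos were pooled before sorting, negative cells are all dissected cells without the reporter, and the labels do not state whether libraries of 1 group came from separate pools, so spreads between libraries may be technical. Population and mouse line cannot be told apart between GFP+ and Tomato+ cells. The run name recorded by the peak caller for Tomato+ replicate 6 holds the letters YFP, and the sample labels were followed.

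ATAC-seq uses a transposase that inserts adapters into accessible DNA, so open promoters and enhancers collect read ends. Most mammalian promoters of widely expressed genes and of many developmental regulators lie in CpG islands, stretches rich in G and C that keep an unusual number of CpG dinucleotides and are mostly unmethylated. A wide open interval in such lists may hold 1 promoter, a pair of promoters facing away from each other, or sequence with many copies in the genome, on which reads from all copies can pile up. A peak in sorted cells does not separate the share of cells with open DNA from the degree of opening in each.

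To show what broad regions look like, 300 bp at or near the strongest summit are given for regions broad in all 7 libraries, on the plus strand of GRCm38 from the RefSeq assembly, with CpG dinucleotides in capitals. The windows were placed outside annotated exons. Skil (chr3:31094628-31094927), Sp4 (chr12:118301948-118302247) and Tdrd3 (chr14:87415800-87416099) are CpG island promoters with 50, 30 and 26 CpG in the window. The last sequence (chr9:124256607-124256906) comes from a region 54642 bp from the nearest curated transcription start site (TSS), that of 2010315B03Rik, and holds 0 CpG.
Skil: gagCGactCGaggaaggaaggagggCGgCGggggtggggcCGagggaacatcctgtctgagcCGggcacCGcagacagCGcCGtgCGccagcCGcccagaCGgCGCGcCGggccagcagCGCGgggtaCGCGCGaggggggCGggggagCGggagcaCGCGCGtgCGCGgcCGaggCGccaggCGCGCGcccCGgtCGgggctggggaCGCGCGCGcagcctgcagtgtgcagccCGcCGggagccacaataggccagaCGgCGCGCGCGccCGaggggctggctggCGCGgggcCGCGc
Sp4: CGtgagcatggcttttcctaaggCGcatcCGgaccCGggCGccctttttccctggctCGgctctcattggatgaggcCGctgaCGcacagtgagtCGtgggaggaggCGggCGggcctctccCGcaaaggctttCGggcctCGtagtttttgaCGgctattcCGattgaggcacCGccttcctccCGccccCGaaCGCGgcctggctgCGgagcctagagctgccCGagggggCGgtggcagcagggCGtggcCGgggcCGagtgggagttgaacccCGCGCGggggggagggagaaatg
Tdrd3: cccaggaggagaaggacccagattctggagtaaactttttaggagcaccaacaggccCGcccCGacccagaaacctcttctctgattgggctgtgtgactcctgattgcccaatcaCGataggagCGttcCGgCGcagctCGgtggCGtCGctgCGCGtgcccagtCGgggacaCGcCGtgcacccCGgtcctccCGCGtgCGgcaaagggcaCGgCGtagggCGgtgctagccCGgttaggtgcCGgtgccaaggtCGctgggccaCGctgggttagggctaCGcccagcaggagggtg
near 2010315B03Rik: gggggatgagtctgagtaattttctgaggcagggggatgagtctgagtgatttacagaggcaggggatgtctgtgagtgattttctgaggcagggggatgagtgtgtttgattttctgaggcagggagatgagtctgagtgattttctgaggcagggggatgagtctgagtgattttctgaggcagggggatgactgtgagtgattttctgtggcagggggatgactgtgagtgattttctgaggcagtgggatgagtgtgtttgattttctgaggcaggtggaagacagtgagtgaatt
The CpG observed over expected ratio was 1.06, 0.87 and 0.806 in the promoter windows. In the fourth window a short unit recurs with changes, and 78.7% of that region is soft-masked as repeat in the assembly.

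Each library had between 60806 and 73690 intervals with q at most 0.01, and broad intervals were 0.13% to 0.404% of them. The number of regions with a broad interval was 119 and 120 in the GFP- libraries, 90 and 171 in the GFP+ libraries (replicates 3 and 4), 93 and 135 in the Tomato+ libraries (replicates 6 and 8), and 297 in the Tomato- library. The number of tags, recovered from the background rate in each list, was 76155637 and 68775066 for GFP-, 59435263 and 76766044 for GFP+, 52340120 and 64869438 for Tomato+ and 93074895 for Tomato-. The library with the most tags thus had the most broad regions, and both libraries with the fewest tags had the fewest. Between these the counts did not follow the tags. GFP- replicate 1 and GFP+ replicate 4, with 76155637 and 76766044 tags, had 119 and 171 regions. The part of depth in these counts was not tested. The GFP+ replicates, with 90 and 171 regions, lay farther apart than the lowest and highest of the GFP- and Tomato+ libraries, with 93 and 135. Without the Tomato- library 374 regions were left.

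**Figure D1:**
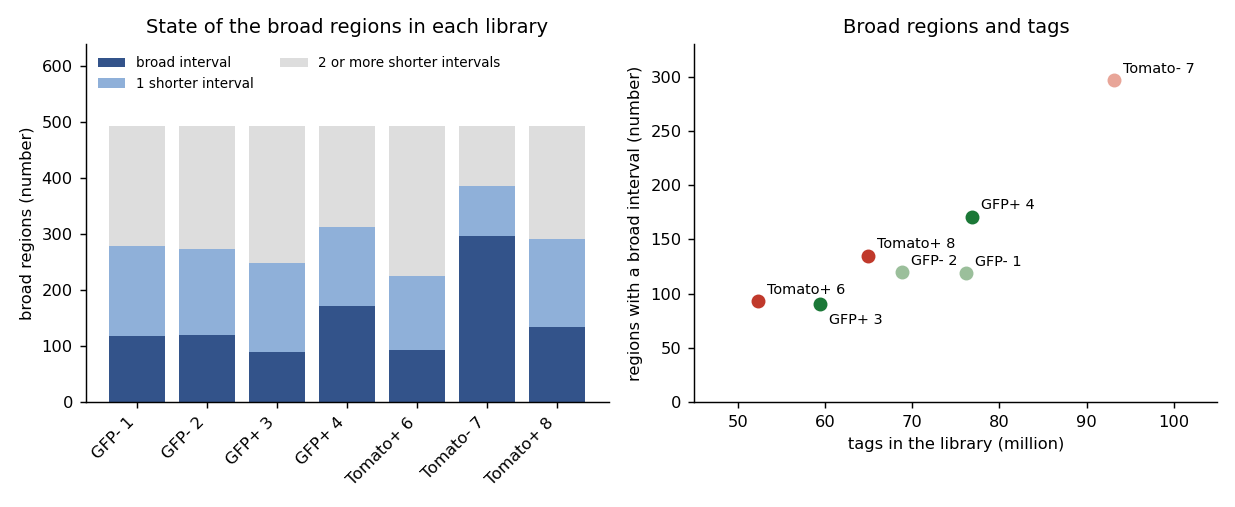
Left, for each library, the number of the 493 broad regions that held a broad interval (dark), 1 shorter interval (light blue) or 2 or more shorter intervals (grey). Right, regions with a broad interval against the number of tags, 1 point per library; Tomato- replicate 7 stands apart with 297 regions at 93074895 tags.

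Most regions were broad in few libraries: 255 (51.7%) in 1 library, 97 in 2, 66 in 3, 34 in 4, 18 in 5, 9 in 6 and 14 in 7. Of the 255, 119 were broad in the Tomato- library alone. These counts describe the values that chose the regions. A region not broad in a library was not closed there, since all 493 regions held a peak with q at most 0.01 in each of the 7 libraries. In libraries without a broad interval the median longest interval was 954 to 1292 bp, the peaks covered a median of 76.2% to 87.2% of the region, and 54.1% to 66.8% of the regions were split into 2 or more intervals. Pou2f1, which encodes the octamer-binding factor OCT1, is an example: its TSS lay in an interval of 2230 bp in GFP- replicate 1, 2276 bp in Tomato- and 2250 bp in Tomato+ replicate 8, but of 1039 bp in GFP- replicate 2, 1442 and 987 bp in GFP+ and 989 bp in Tomato+ replicate 6. Within broad intervals the summits called by MACS lay a median of 143 to 151 bp apart, close to the 142 to 146 bp in intervals of 500 bp to under 1500 bp.

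Broad regions were promoters for the greater part. A curated RefSeq TSS lay inside 443 of them (89.9%), and 434 held the TSS of a protein-coding gene. TSSs of 2 or more genes lay in 106 regions, and 101 had TSSs on both strands. Of the other 50 regions, 20 were repeated sequence, 1 was mitochondrial-like and 29 were single-copy, and 21 of these 29 held a TSS of the GENCODE annotation. The median length over the 493 regions was 1650 bp, the median GC content 68.4% and the median CpG ratio 0.837. In 455 regions (92.3%) the ratio was at least 0.6 and the GC content at least 50%, the usual limits for a CpG island.

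Annotation and base composition were not used to choose the regions, and they were compared between broad and shorter intervals within each library. The strongest summit of a broad interval lay between 1000 bp upstream and 100 bp downstream of a TSS in 71.4% and 74.2% of the broad intervals of the GFP- libraries, 75.6% and 69.6% of those of GFP+, 78.5% and 74.1% of those of Tomato+ and 77.5% of those of Tomato-. For shorter intervals with q at most 0.01 the share was 16.7% to 19.3%. The mean difference was 56.5 percentage points ± 3.64 (SD, n = 7 libraries; exact two-sided sign-flip permutation test, p = 0.0156, adjusted over 5 tests 0.0156). This is the smallest p that 7 libraries allow. The lists share loci, with 22070 merged regions holding a peak in all 7. In this and the other tests, SD and p thus describe consistency between lists that are not independent. The CpG ratio in the 300 bp around the summit averaged 0.815 in broad and 0.377 in shorter intervals, a difference of 0.439 ± 0.0249 (SD, n = 7, exact permutation test, adjusted p = 0.0156), and GC content 68.4% and 55.1%, a difference of 13.3 ± 0.815 (SD, n = 7, exact permutation test, adjusted p = 0.0156). Ranges of broad and shorter intervals did not overlap for any of the 3 measures, and each difference had the same sign in 7 of 7 libraries. Among promoter intervals alone, broad ones still had a CpG ratio higher by 0.109 and a GC content higher by 5.07 percentage points (exact permutation test, p = 0.0156 for each, n = 7).

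Length and promoter share did not rise together over the whole range of lengths. The promoter share was 3.56% to 4.48% in the shortest intervals (under 200 bp), 58.7% to 63.7% from 500 bp, 76.1% to 78.2% from 1000 bp and 71.1% to 81.1% from 1500 bp to under 2000 bp. The values from 1000 bp and from 1500 bp overlapped. In the 3 to 24 intervals of 2000 bp or more in each library the share was 0.0% to 70.8%, and 16.7% to 66.7% of these intervals lay in repeated sequence. With 2000 bp as the limit, the promoter difference was 16.6 percentage points and no longer passed the test (exact permutation test, p = 0.109, n = 7). Against as many shorter intervals with the highest fold enrichment in each library, the difference was larger, 74.3 percentage points, since 0.0% to 0.585% of those intervals were promoters and 73.5% to 81.1% were repeated sequence.

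**Figure D2:**
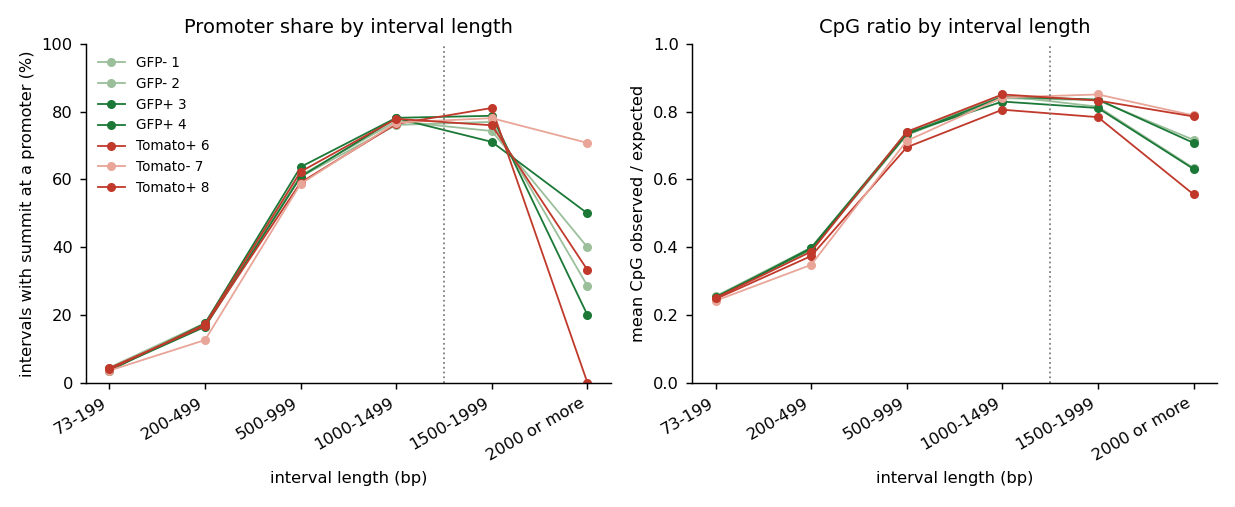
Share of intervals whose strongest summit lay at a promoter (left, %) and mean CpG observed over expected ratio around the summit (right) by interval length in bp, 1 line per library; the dotted line marks the length limit of 1500 bp. Both measures rise steeply up to 1000 bp, are alike on either side of the dotted line and spread out at 2000 bp or more, where each library has 3 to 24 intervals.

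In 338 single-copy regions with TSSs on 1 strand, the region reached a median of 645 bp upstream and 1030 bp downstream of the most upstream TSS. It extended farther downstream in 247 of them (73.1%). Shorter intervals had the same lean: per library, 62.7% to 76.6% of broad intervals and 67.4% to 73.3% of intervals of 500 bp to under 1500 bp reached farther downstream than upstream. Broad intervals were wider on both sides, with medians of 604 to 706 bp upstream against 289 to 298 bp, and of 922.5 to 1050 bp downstream against 434 to 474 bp.

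**Figure D3:**
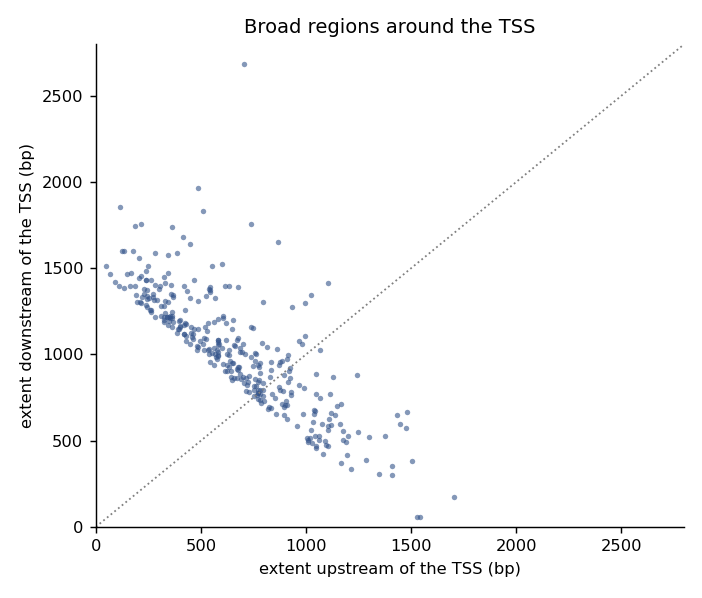
Extent of 338 single-copy broad regions upstream (x axis, bp) and downstream (y axis, bp) of their most upstream TSS, 1 point per region; the dotted line marks equal extents. Most points, 247 of 338, lie above the line.

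Of the 14 regions broad in all 7 libraries, 8 held a curated TSS. The region of Sp4 (chr12:118300841-118302599), a zinc finger factor of the SP/KLF family that binds GC boxes, had its longest interval at 1693 and 1662 bp in GFP-, 1752 and 1757 bp in GFP+, 1719 and 1737 bp in Tomato+ and 1555 bp in Tomato-. Its fold enrichment over the local background was 6.35 in Tomato+ replicate 6 and 8.64 to 9.16 in the other 6 libraries. Sp1 (chr15:102405285-102406922), of the same family, missed the limit in 1 library, with 1494 bp in Tomato+ replicate 6 and 1549 to 1638 bp elsewhere.

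The region shared by Gt(ROSA)26Sor and Setd5 (chr6:113076028-113077981) measured 1767 and 1817 bp in GFP-, 1803 and 1771 bp in GFP+, 1940 and 1720 bp in Tomato+ and 1647 bp in Tomato-. Gt(ROSA)26Sor is a widely transcribed noncoding gene and Setd5 encodes a SET domain protein linked to chromatin. The tdTomato reporter of the Tomato line is inserted at this locus, and its part in these lengths was not tested. At Skil (chr3:31093944-31095827), whose product is a SKI-like corepressor of SMAD signalling, the longest intervals spanned 1555 to 1836 bp. Sgpl1 (chr10:61146211-61148028), which encodes the lyase that breaks down sphingosine-1-phosphate, spanned 1682 to 1776 bp with fold enrichments of 5.33 to 7.09. Ppp2r5a (chr1:191396134-191397874), a regulatory subunit of protein phosphatase 2A, spanned 1549 to 1724 bp, and Tdrd3 (chr14:87415697-87417544), a Tudor domain protein, 1567 to 1759 bp. In these 5 regions the pairs of libraries of a group overlapped with the rest, except at Sgpl1, where GFP- with 1711 and 1682 bp lay below the 1725 to 1776 bp of the other 5 libraries. At Sp4, described above, GFP+ with 1752 and 1757 bp lay above the 1555 to 1737 bp of the other 5 libraries.

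The longest merged region, 3391 bp at 4930526I15Rik (chr9:124422547-124425937), was held by more than 1 interval in each library, with the longest at 2254 and 1813 bp in GFP-, 1743 and 1760 bp in GFP+, 1621 and 1604 bp in Tomato+ and 1761 bp in Tomato-. It has a CpG ratio of 0.877 and contains the GENCODE TSS of Ppp2r3d. The Mir6546 region (chr1:171063790-171066203) holds 4 transfer RNA genes and spanned 1588 bp in Tomato+ replicate 8 and 2152 to 2408 bp in the other libraries.

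**Figure D4:**
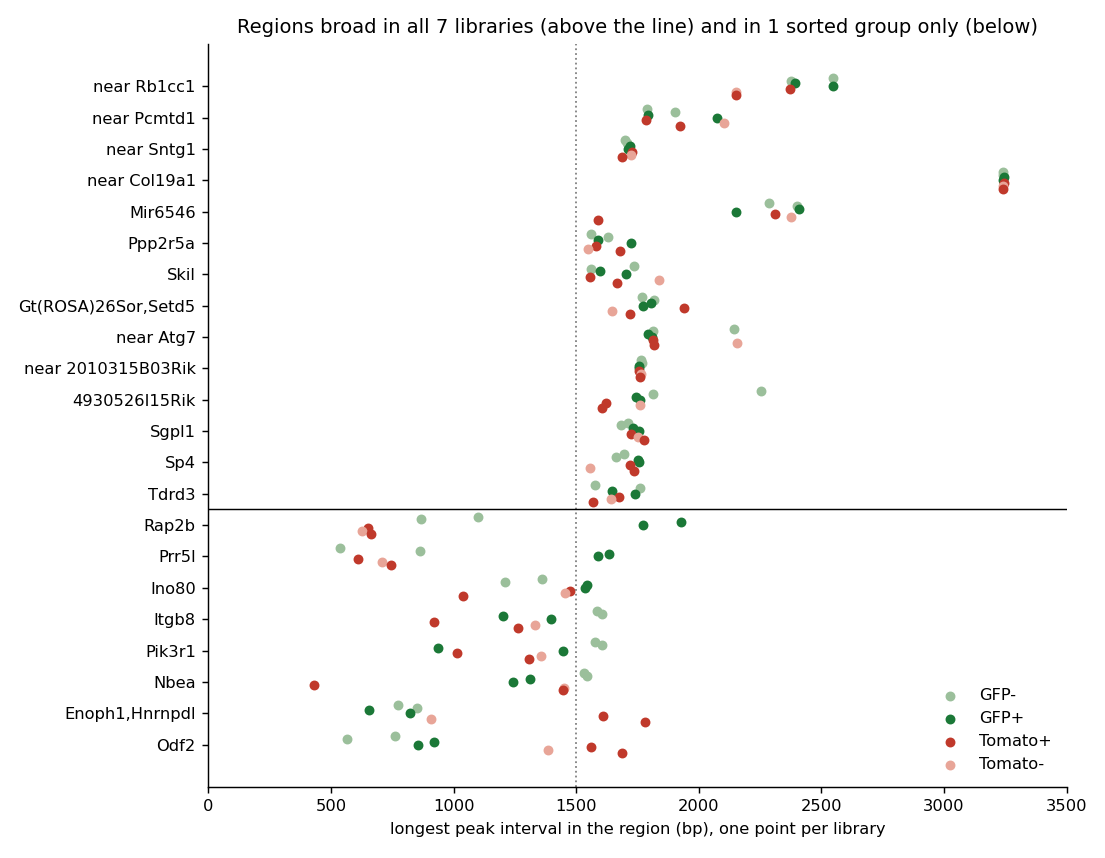
Longest peak interval (bp) in each of 22 regions, 1 point per library, coloured by sorted group. Above the line are the 14 regions broad in all 7 libraries, with all points right of the dotted 1500 bp limit, and below it 8 regions broad in both libraries of 1 group only.

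The other 6 regions broad in all 7 libraries lay outside curated promoters, and 4 of them in repeated sequence. Those labelled by the nearest genes Rb1cc1 (chr1:6169438-6171989), Pcmtd1 (chr1:7333621-7335737) and Sntg1 (chr1:8688229-8689963, in an intron of that gene) were masked over at least 99.7% of their length, with a median of 1205, 2237 and 2720 genome copies of their 31-mers. The pileup at their summits was 327 to 710, 658 to 1115 and 453 to 779 tags, against 51 to 82 at Skil. Altogether 25 of the 493 regions were repeated sequence, and 10 of these lay on chromosome 1 between 4084279 and 61499471, without a TSS, each broad in 3 to 7 libraries and with 636 to 3096 copies. Taken around the strongest summit, repeated sequence was nevertheless rarer among broad intervals than among shorter ones, at 11.0% against 23.2%. The difference was -12.2 percentage points ± 4.19 (SD, n = 7, exact permutation test, adjusted p = 0.0156). With 2000 bp as the limit the difference was reversed, at 16.9 percentage points (exact permutation test, p = 0.0781, n = 7). Without the repeated sequence 468 regions were left, the mitochondrial-like one among them.

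The region nearest to Col19a1 (chr1:24612864-24616108) had the longest intervals, 3240 to 3243 bp in the 7 libraries, and 99.0% of its 31-mers also occur in the mitochondrial genome. Its pileup was 6066 and 6376 tags in GFP-, 6193 and 6973 in GFP+, 2945 and 3466 in Tomato+ and 4431 in Tomato-, so that all GFP-line libraries were above all Tomato-line libraries. The part of mitochondrial reads in this was not tested. Its fold enrichment was only 3.35 to 3.76. The local background, worked back from the pileup and this ratio, was 347 to 797 times that of the genome. The intergenic region near 2010315B03Rik (chr9:124256285-124258052), whose sequence is given above, measured 1754 to 1768 bp with fold enrichments of 9.73 to 11.6 and a CpG ratio of 0.0297 in 1768 bp.

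Gene identity was not used to choose the regions. Of 24963 genes with a curated TSS, 551 (2.21%) had one inside a broad region, and of the 10081 genes with a peak at a TSS in all 7 libraries, 471 (4.67%). Set against these shares, 18 of 146 chromatin regulator genes (12.3%) were in broad regions, 6 of 57 genes of the AP-2, TEAD, MEF2, LEF/TCF and ETS families (10.5%), 8 of 90 developmental zinc finger genes (8.89%), 10 of 117 cell cycle genes (8.55%) and 10 of 168 splicing and RNA-binding genes (5.95%). Signalling genes had 6 of 200 (3.0%) and cytosolic ribosomal protein genes 1 of 78 (1.28%), Rpl7, whose region is shared with Rdh10, a retinol dehydrogenase of retinoic acid synthesis. Forkhead genes had 2 of 41 (4.88%), histone genes 3 of 69 (4.35%), other homeobox genes 6 of 157 (3.82%) and nuclear receptor genes 1 of 42 (2.38%). Among genes with a peak at a TSS in all 7 libraries, where the share over all genes was 4.67%, the order was another: 5 of 30 genes of the AP-2 to ETS families (16.7%), 6 of 39 zinc finger genes (15.4%), 2 of 15 forkhead genes (13.3%), 13 of 101 chromatin regulator genes (12.9%), 4 of 32 other homeobox genes (12.5%), 10 of 95 cell cycle genes (10.5%) and 10 of 134 splicing and RNA-binding genes (7.46%). In the same set, histone genes had 3 of 34 (8.82%), signalling genes 4 of 77 (5.19%), nuclear receptor genes 1 of 22 (4.55%) and cytosolic ribosomal protein genes 0 of 54. The lists were compared by counts only.

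The chromatin regulators with the largest median interval length, after Setd5, were Kdm2a, Mllt10 and Cbx3. Kdm2a encodes a histone demethylase with a zinc finger that binds unmethylated CpG, and its TSS interval was 555 bp in GFP+ replicate 3 and 1593 to 1852 bp in the other 6 libraries. Cbx3, for heterochromatin protein 1 gamma, shares a region with Hnrnpa2b1, an RNA-binding protein gene (chr6:51469580-51471399). The promoter pair measured 1691 and 1511 bp in GFP-, 1505 and 1402 bp in GFP+, 1726 and 1422 bp in Tomato+ and 1632 bp in Tomato-. Ezh2, the methyltransferase of Polycomb repressive complex 2, was just past the limit in GFP- replicate 1 at 1536 bp and had 1309 to 1499 bp elsewhere. Ctcf, for the insulator-binding factor, had 1546 bp in Tomato- and 1012 to 1484 bp elsewhere. The single-library calls at Ezh2 and Ctcf thus rest on differences that are small beside the spread over libraries.

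Among 546 developmental transcription factor genes, 23 (4.21%) were in broad regions, against 2.21% of all genes, and 18 of the 174 with a peak at a TSS in all 7 libraries (10.3%), against 4.67%. Elf2, an ETS factor gene, has separate promoters in 2 broad regions. One (chr3:51339996-51342077) had a longest interval of 1759 and 1928 bp in GFP-, 1409 and 1761 bp in GFP+, 1467 and 1620 bp in Tomato+ and 1471 bp in Tomato-. The other, shared with 4930577N17Rik (chr3:51275960-51277722), had 1763 bp in Tomato- and 463 to 923 bp elsewhere. The forkhead gene Foxn2 had 958 to 1541 bp. Gli3, an effector of Hedgehog signalling, had 1788 bp in GFP+ replicate 4, 1585 bp in Tomato- and 946 to 1490 bp elsewhere. On average per library, these genes made up 5.17% of broad promoter intervals and 3.09% of shorter ones. The difference was 2.08 percentage points ± 1.44 (SD, n = 7, higher in 7 of 7, exact permutation test, adjusted p = 0.0156). Broad promoter intervals numbered only 68 to 231 per library, so these shares rest on few intervals. The difference ranged from 0.311 in GFP- replicate 2 to 4.54 in GFP+ replicate 4. The mean difference depended on the settings. It was 0.761 when the promoter was taken as 500 bp to each side of a TSS (exact permutation test, p = 0.281, n = 7). With a length limit of 1000 bp it was -0.284 (exact permutation test, p = 0.156, n = 7).

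Genes that mark the second heart field and its neighbours were not among them. The counts were 0 of 32 heart field markers, 0 of 39 Hox cluster genes, 0 of 18 Sox, 0 of 16 T-box and 0 of 8 GATA genes, 0 of 78 basic helix-loop-helix genes, and 0 of 8 neural, 6 neural crest, 9 endothelial and blood, 8 endoderm and 9 somite markers. At 2.21% such lists would hold few genes in any case. Every broad region held a peak in all 7 libraries. Peaks at a TSS in all 7 occurred at only 11 of the 32 heart field markers and 2 of the 39 Hox genes. For Sox, T-box, GATA and basic helix-loop-helix genes the counts were 6, 3, 4 and 21. For neural, neural crest, endothelial and blood, endoderm and somite markers they were 0, 2, 1, 0 and 1. The longest TSS interval of a heart field marker was that of Fgf10, a growth factor of heart field cells, with 1292 and 1354 bp in GFP+ and 1352 bp in Tomato+ replicate 6, but 629 bp in Tomato+ replicate 8, 474 and 454 bp in GFP- and 750 bp in Tomato-. Isl1, the LIM homeobox factor that marks these progenitors, had 462 to 813 bp. Mef2c, the MADS box factor whose element drives Cre in the Tomato line, had 1306 and 1191 bp in Tomato+ and 400 to 795 bp in the other 5 libraries. Hoxb1 itself had a peak at its TSS in 4 libraries, at 317 and 280 bp in GFP+, 602 bp in Tomato- and 341 bp in Tomato+ replicate 8.

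**Figure D5:**
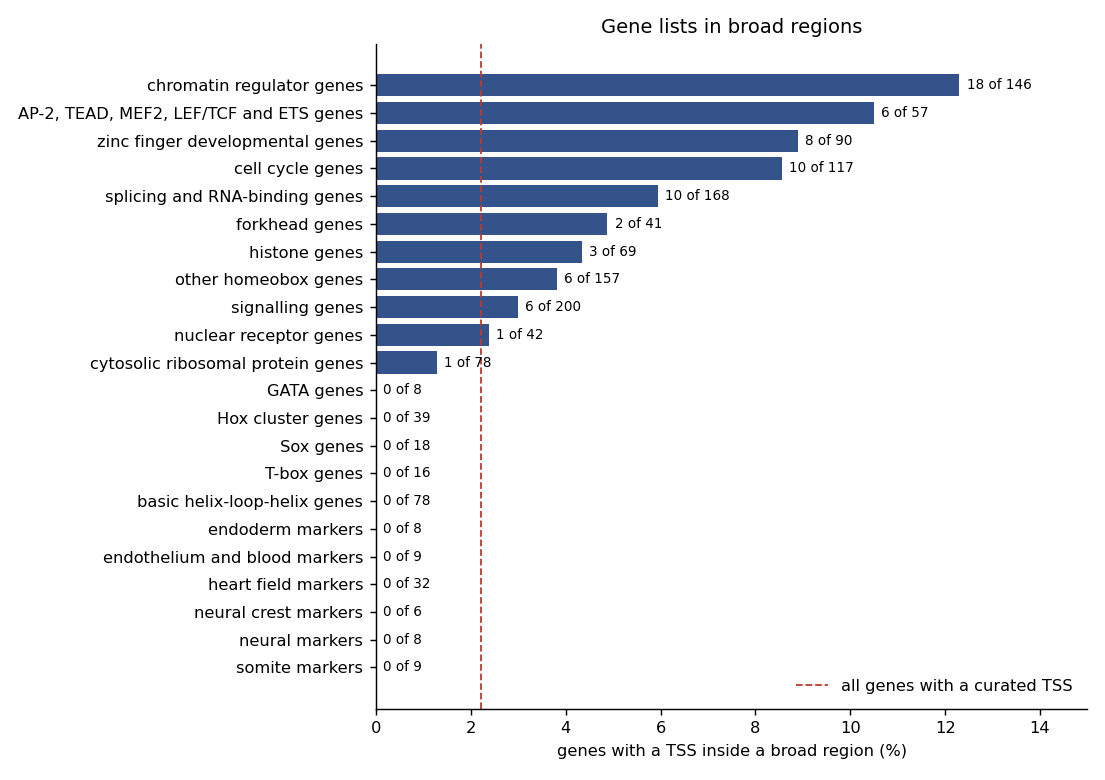
Share of the genes of each list with a TSS inside a broad region (%), with counts beside the bars; the dashed line is the share over all 24963 genes, 2.21%. Chromatin regulators have the longest bar (18 of 146), and 11 lists have 0 genes.

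The sorted groups were compared by the length that peaks with q at most 0.01 covered in each region. Since length chose the regions, these counts are descriptions. An exact permutation test of 2 against 2 libraries has 6 arrangements, 2 of which give its smallest two-sided p, so it cannot pass 0.05. Between GFP+ and GFP- cells, the libraries did not overlap in 170 of 493 regions (34.5%), with GFP+ longer in 83 (16.8%) and GFP- in 87 (17.6%). Over all 203618 merged regions these shares were 4.3% and 5.04%, but most of those lack a peak in several libraries, and over the 22070 regions with a peak in all 7 libraries they were 15.4% and 23.2%. Between GFP+ and Tomato+ cells, 87 regions (17.6%) were longer in GFP+ and 68 (13.8%) in Tomato+, against 4.26% and 4.16% of all regions and 16.1% and 18.9% of those with a peak in all 7. The summit pileup divided otherwise. Its shares over all merged regions were not counted, so these splits cannot be called particular to broad regions. Scaled to the number of tags it was higher in GFP+ than in GFP- in 126 regions (25.6%) and lower in 35 (7.1%), but 73 (14.8%) and 86 (17.4%) when scaled by the library's median over regions with a peak in all 7. Between GFP+ and Tomato+ the same scalings gave 73 and 134, and 106 and 80, so neither direction held under both. The median covered length over the broad regions was 1412 bp in GFP+, 1402 bp in GFP- and 1366 bp in Tomato+.

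The Tomato- library was above both Tomato+ libraries in 322 regions (65.3%) and below in 40 (8.11%), against 24.0% and 3.81% of all regions and 49.4% and 15.5% of those with a peak in all 7 libraries. It is the library with the most tags and it alone set 119 of the regions. In 302 regions that were broad in a GFP-line library, a choice that did not use the Tomato line, it was above both Tomato+ libraries in 190 (62.9%) and below in 23 (7.62%). For the pileup at the strongest summit, the direction depended on the scaling. Scaled to the number of tags, over the 493 regions it was higher in Tomato- in 122 (24.7%) and higher in both Tomato+ libraries in 184 (37.3%). Scaled by the library's median, it was higher in Tomato- in 181 (36.7%) and lower in 118 (23.9%). For the pileup, shares over all merged regions were not counted here either.

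Of the 97 regions broad in exactly 2 libraries, 11 were broad in both libraries of 1 group, 6 for GFP+, 3 for GFP- and 2 for Tomato+. The rest paired libraries of different groups, so regions broad in 1 group only cannot be called particular to that group. Rap2b (chr3:61363033-61365079), which encodes a RAS-related small GTPase, had a longest interval of 1927 and 1774 bp in GFP+, 1098 and 867 bp in GFP-, 651 and 663 bp in Tomato+ and 627 bp in Tomato-. Its summit pileup, scaled to 1000000 tags of the library, overlapped between them, at 1.04 and 0.912 in GFP+ and 1.04 and 1.03 in GFP-. Prr5l (chr2:101796340-101798138), for a protein that binds mTOR complex 2, had 1632 and 1588 bp in GFP+ and 538 to 861 bp in the other 5 libraries. At Ino80 (chr2:119476831-119478379), the ATPase of a chromatin remodelling complex, the gap was narrow, with 1543 and 1535 bp in GFP+ and 1476 bp in Tomato+ replicate 6. The GFP- regions were Itgb8, an integrin subunit (1584 and 1607 bp against 918 to 1395 bp elsewhere), Pik3r1, the regulatory subunit of phosphoinositide 3-kinase (1576 and 1605 bp against 937 to 1447 bp), and Nbea, a scaffold protein of vesicle transport (1530 and 1543 bp against 429 to 1448 bp). The Tomato+ regions were the shared promoter of Enoph1 and Hnrnpdl, with 1608 and 1780 bp against 656 to 907 bp, and Odf2, a centriole protein gene, with 1560 and 1685 bp against 567 to 1386 bp.

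The longest regions broad in 1 library only were Cdk13, a kinase of RNA polymerase II, with 2493 bp in Tomato- and 769 to 1230 bp elsewhere, the AA386476 and Ing2 promoters with 2342 bp in GFP- replicate 2 and 1003 to 1344 bp elsewhere, and Msl1, a subunit of a histone acetyltransferase complex, with 2211 bp in Tomato- and 601 to 1316 bp elsewhere. Just inside the length limit, at 1500 bp, were the regions near Smgc and at Cadm1 in Tomato+ replicate 8 and at Bambi in Tomato-. Just outside it, all in Tomato-, were intervals at Mob3b and Rbpms with 1499 bp and at Tmeff2 with 1498 bp.

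Short motifs were counted on both strands in the 300 bp around the strongest summit of promoter intervals, as a description, and each motif was searched on its own, so matches of different motifs may overlap. GGGCGG, bound by SP/KLF factors, was in 83.5% to 89.9% of broad promoter intervals per library, in 68.2% to 70.5% of shorter ones and in 36.0% of 31365 RefSeq promoter windows of 300 bp. CCAAT, the NFY box, was in 36.0% to 46.6%, 35.9% to 37.3% and 37.3%. CCGGAAG, an ETS site, was in 7.35% to 16.0% of broad and 15.9% to 16.6% of shorter promoter intervals, lower in broad ones in all 7 libraries, and in 9.0% of the windows. AGATAA, bound by GATA factors, was in 0.0% to 2.74%, 3.32% to 3.89% and 11.2%, and TGATNNAT, a HOX-PBX site, in 0.0% to 1.73%, 2.31% to 2.6% and 8.81%. The rest of the 8 motifs counted, GCATGCGC (NRF1), TGACGTCA (a CRE site) and TGGAATG (TEAD), also had overlapping ranges. Their shares were 1.18% to 6.0%, 0.0% to 5.04% and 0.0% to 2.25% of broad promoter intervals. In shorter ones they were 4.36% to 4.84%, 3.08% to 3.35% and 2.09% to 2.44%. With 68 to 231 broad promoter intervals per library, the low shares rest on few intervals. GC content differs between these sets, and its part in the shares was not tested.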

How the data were processed

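ATAC-seq was done on 10000 sorted cells per sample, per the study's methods. The authors aligned reads to GRCm38 with SNAP, removed duplicates, improper pairs and blacklisted regions, and called peaks per library with MACS2 2.1.1 (methods; the 1 header kept names an earlier release, a p limit of 0.01, a shift of 37 bp and an extension of 73 bp, which can widen or split peaks). The deposited pileup is the coverage signal at a summit, unscaled. The deposited fold enrichment is the ratio to the local background. The deposited -log10 p-values and q-values are those of MACS within a library. A peak with several summits was taken as 1 interval with its strongest summit. The lists differ in tags, recovered from the background rate, and were not brought to 1 depth, so its part in lengths and q-values was not tested.

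TSSs were 30179 positions of curated RefSeq transcripts. For intervals, repeated sequence means a median of at least 2 genome copies of the 31-mers within 50 bp of the strongest summit. For regions the median was taken over all 31-mers of the region, with the same limit. Tests were exact sign-flip permutations over 7 libraries with Benjamini-Hochberg adjustment over 5, and merging, copy counting and the test were tested on simulated data. Regions named were the 10 longest and 5 farthest from a TSS of those broad in all 7, up to 3 per group broad in that group only, the 3 longest in 1 library, those at heart field genes (0) and 3 on either side of the limit, with list examples by median length; the further genes named (Ezh2, Ctcf, Gli3, Pou2f1, Rdh10, Hnrnpu, the heart field markers' values and the observations) were picked after their values were seen. The regions, gene lists and tests were chosen with earlier results of these data known. Alternatives were other limits of length, q, overlap, copies and promoter window, the strongest shorter intervals, pileup measures and leaving out libraries; single-copy intervals, regions chosen in the other line and leaving out Tomato+ libraries in the Tomato comparison were added after seeing the data. Python 3.11.15, numpy 2.4.6, pandas 2.3.3, numba 0.67.0 and matplotlib 3.10.9 were used.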

Additional observations from a re-analysis of the deposited data

Results flagged for a closer look

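At Rap2b and Prr5l reporter-positive and reporter-negative cells differed in opposite directions in the mouse lines. The covered length at Rap2b was 1927 and 1774 bp in GFP+ against 1608 and 1484 bp in GFP-, a mean difference of 304.5 bp, whereas both Tomato+ libraries (1404 and 1484 bp) were below the Tomato- library (1772 bp), a mean difference of -328 bp. At Prr5l it was 1632 and 1588 bp in GFP+ against 969 and 861 bp in GFP-, a difference of 695 bp, and 1156 and 1181 bp in Tomato+ against 1225 bp in Tomato-, a difference of -56.5 bp. Tomato- was above both Tomato+ libraries in 322 of the 493 broad regions (65.3%), so this direction in the Tomato line was common to most of them. The difference between the lines was not tested, the Tomato side rests on 1 Tomato- library, and both regions were chosen for their length in GFP+.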

How the results depend on the processing

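With length limits of 1000 and 2000 bp there were 4205 and 39 broad regions, of which 360 and 2 were broad in all 7 libraries, and requiring a broad interval in at least 2 libraries left 238. At 2000 bp the promoter difference (16.6 percentage points) and the GC difference (2.81, exact permutation p = 0.234) no longer passed the test and the repeated-sequence difference reversed to 16.9; too few promoter intervals were left for the transcription factor share at that limit. The transcription factor difference was -0.284 at 1000 bp and 0.761 with promoters of 500 bp to each side of a TSS. The cause of these shifts was not tested. The 5 tested differences kept their direction and passed at q at most 0.0001, in single-copy intervals alone where this applied, and without each library in turn. They did so too against the strongest shorter intervals, which were 73.5% to 81.1% repeated sequence. That setting therefore decides little for the promoter, base composition and repeat differences. Leaving out 1 library raised the regions with no overlap to 324 to 336 between GFP+ and GFP- and to a lowest of 299 and a highest of 358 between GFP+ and Tomato+, since 1 library is then set against 2. Between Tomato+ and Tomato- it was 213 of the 302 regions chosen in the other line, and 492 and 493 with 1 Tomato+ library. No paired analysis was possible because the groups share no replicate numbers. The part of depth in which regions reach the length limit was not tested.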

Other observations

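Transfer RNA and 5S ribosomal RNA genes lay in some broad regions. Of the 493 regions 6 held transfer RNA genes: 4 genes in the Mir6546 region, broad in 7 libraries, 4 near Trim55 (chr3:19627828-19629362, 1 library), 2 at Agbl5 (chr5:30887372-30889517, 3 libraries), 2 near Wnt11 (chr7:98814999-98816510, 1 library) and 1 each at Mir760 (2 libraries) and at Mir8105 and Smarcc2 (1 library). The region at the 5S gene n-R5s100 and one near n-R5s149 were broad in 6 and 4 libraries and had a median of 49 genome copies, as did the region near Atg7 (chr6:114635484-114637643), broad in all 7 libraries with intervals of 1794 to 2156 bp.

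At Hnrnpu (chr1:178336384-178338053), a nuclear RNA-binding protein gene, the TSS interval was 1586 and 1626 bp in Tomato+ and 1637 bp in Tomato-, but 407 and 438 bp in GFP- and 515 and 551 bp in GFP+, so it divided by mouse line and not by sort. The region was split in the GFP line, where its longest interval was 1151 and 719 bp in GFP- and 764 and 729 bp in GFP+. Ccng2 (chr5:93266864-93268577), for cyclin G2, had 1697 and 1620 bp in GFP-, 451 and 253 bp in GFP+, 794 and 1627 bp in Tomato+ and 1624 bp in Tomato- at its TSS, with a longest interval of 588 and 814 bp in the region in GFP+. The histone gene pair H2ac18 and H3c14 (chr3:96245324-96247090), in sequence with a median of 2 genome copies, had 1 interval of 1767 bp in GFP+ replicate 4, while in the other 6 libraries the interval was 423 to 645 bp at H2ac18 and 776 to 1027 bp at H3c14. These were single regions picked for their values, with no test.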
